A study of Mus musculus with 16 samples.

Results

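The J segments of the TCRα locus that lie nearest to the constant region were followed in 16 TCRα libraries from mouse CD8 T cells. All TRAJ segments numbered 1 to 9 were taken, by the first J hit of each deposited CDR3 nucleotide sequence. Of these 9 segments 6 were found, namely TRAJ2, TRAJ4, TRAJ5, TRAJ6, TRAJ7 and TRAJ9, out of 43 TRAJ segments found in all. They held 8768 of the 83992 sequences, or 10.4%. TRAJ9 had 2535 sequences, TRAJ7 2273, TRAJ4 1579, TRAJ6 1300, TRAJ2 544 and TRAJ5 537.

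The study compared Themis+/+ and Themis-/- mice, both on the C57BL/6 background and both carrying Foxp3-GFP, in CD8 single positive thymocytes and in CD8 T cells from lymph nodes (LN). Themis is a signalling protein of developing thymocytes, and the deletion is in the germline, so it is present in every cell of the Themis-/- animals. Each genotype and tissue was sequenced as all CD8 cells and as cells sorted for Vα3.2 (the TRAV9N-3 element), which gives 8 groups of 2 libraries each. The series text describes the libraries of a group as coming from separate mice, whereas per the methods the nodes of more than 1 mouse went into an LN sample, so p-values measure the spread between these libraries. One label field of the sorted libraries names the cells Va2.3 and another Va3,2. The tables measure TCRα only and cannot check the genotype.

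TCRα is assembled in thymocytes by joining a V segment to a J segment, with bases trimmed from both ends and non-templated N nucleotides added between them. The first joins of a chromosome use V segments close to the J cluster and J segments at its V-proximal, high-numbered end. Later joins delete what lies between and move outward on both sides, so low-numbered TRAJ segments are reached late and mostly by V segments further upstream. A join that fails positive selection can be replaced in this way until the cell is selected or dies.

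On GRCm38 the 6 segments span 8509 bases of chromosome 14, plus strand, from TRAJ9 (chr14:54209393-54209450) to TRAJ2 (chr14:54217836-54217901), which ends 2620 bases before the constant region gene Trac. TRAJ7 lies at chr14:54211470-54211528, TRAJ6 at chr14:54212688-54212749, TRAJ5 at chr14:54213777-54213838 and TRAJ4 at chr14:54216291-54216353, and all 6 are annotated as J gene segments, each coding for the end of the CDR3 and the start of the framework after it. The GENCODE M21 sequences are shown because the germline base before each position is what the junctions below are read against. Capitals mark the codons GGNNNNGGN, read in the frame of the segment's 3′ end, which encode the glycine-any-glycine turn that follows a CDR3; the CDR3 ends just before them.
TRAJ9: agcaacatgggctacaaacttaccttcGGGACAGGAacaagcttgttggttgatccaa
TRAJ7: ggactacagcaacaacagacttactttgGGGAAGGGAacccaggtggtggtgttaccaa
TRAJ6: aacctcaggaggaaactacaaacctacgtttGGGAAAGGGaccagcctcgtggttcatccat
TRAJ5: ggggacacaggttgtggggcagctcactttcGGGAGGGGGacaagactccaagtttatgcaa
TRAJ4: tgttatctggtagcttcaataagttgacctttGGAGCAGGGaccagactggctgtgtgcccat
TRAJ2: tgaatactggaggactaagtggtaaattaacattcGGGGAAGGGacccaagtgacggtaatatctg
TRAJ3: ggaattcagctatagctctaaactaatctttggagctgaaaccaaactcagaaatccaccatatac
TRAJ3, printed without capitals, holds no such motif in frame and was not found in any library, and neither were TRAJ1 and TRAJ8, which are annotated as pseudogenes and hold none either. In the whole cluster 47 of the 60 annotated segments hold the motif, and each of the 43 segments found is one of these.

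Depth and sequence quality differed between the kinds of library. The libraries of all CD8 cells held 57455 to 146191 reads in 4357 to 16670 distinct sequences and the sorted libraries 10338 to 25247 reads in 84 to 1610 sequences. Reads carried no described molecular identifiers, so intervals given here cover counting error only. Without the sort, 50.0% to 57.4% of the sequences in a library, holding 30.2% to 36.8% of reads, differed from the germline J segment within the last 12 bases of the CDR3, against 0.542% to 2.38% of sequences in the sorted libraries. For sequences with TRAJ2 to TRAJ9 the shares were 51.1% to 57.6% and 0% to 3.70%. Of the substitutions that these members carried in the libraries of all CD8 cells, 82.6% put G where the germline has T, and the other TRAJ segments showed 76.3%. The shares differed between members, from 43.3% in TRAJ5 and 43.8% in TRAJ2 to 54.9% in TRAJ4 and 67.5% in TRAJ7. Numbers of distinct sequences in the libraries of all CD8 cells therefore count sequences that differ only in the J end separately, and results are also given for sequences with a germline J end. The sorted tables also use another export layout, so the sort cannot be told apart from the way the tables were made. Invariant chains of other T cell types were rare: TRAV11 joined to TRAJ18, the NKT chain, made up 0% to 0.419% of reads and TRAV1 joined to TRAJ33, the MAIT chain, 0% to 0.0424%.

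In the libraries of all CD8 cells, TRAJ2 to TRAJ9 together made up 10.4% and 4.18% of sequences in Themis+/+ thymus, 13.7% and 12.4% in Themis-/- thymus, 4.74% and 9.06% in Themis+/+ LN and 10.99% and 10.97% in Themis-/- LN (libraries 1 and 2 of each group). The lowest shares were Themis+/+ thymus 2 and Themis+/+ LN 1, which stood apart from the other 6 libraries, and both Themis-/- libraries lay above both Themis+/+ libraries in each tissue. As group means this was 7.31% ± 4.43 against 13.1% ± 0.919 in thymus and 6.90% ± 3.05 against 10.98% ± 0.0186 in LN (SD, n = 2), Themis+/+ first. By reads, in the same order, they were 10.6% and 4.62%, 14.1% and 12.8%, 4.89% and 8.52%, and 10.003% and 12.1%, and the genotypes again did not overlap within a tissue. Among sequences with germline J ends they were 10.2% and 4.09%, 13.8% and 12.1%, 4.57% and 8.75%, and 11.4% and 10.9%. The exact (Clopper-Pearson) 95% intervals of the Themis+/+ libraries did not meet, at 9.98% to 10.9% and 3.78% to 4.60% in thymus and 4.38% to 5.13% and 8.33% to 9.83% in LN, so these pairs differed by more than counting error.

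**Figure D1:**
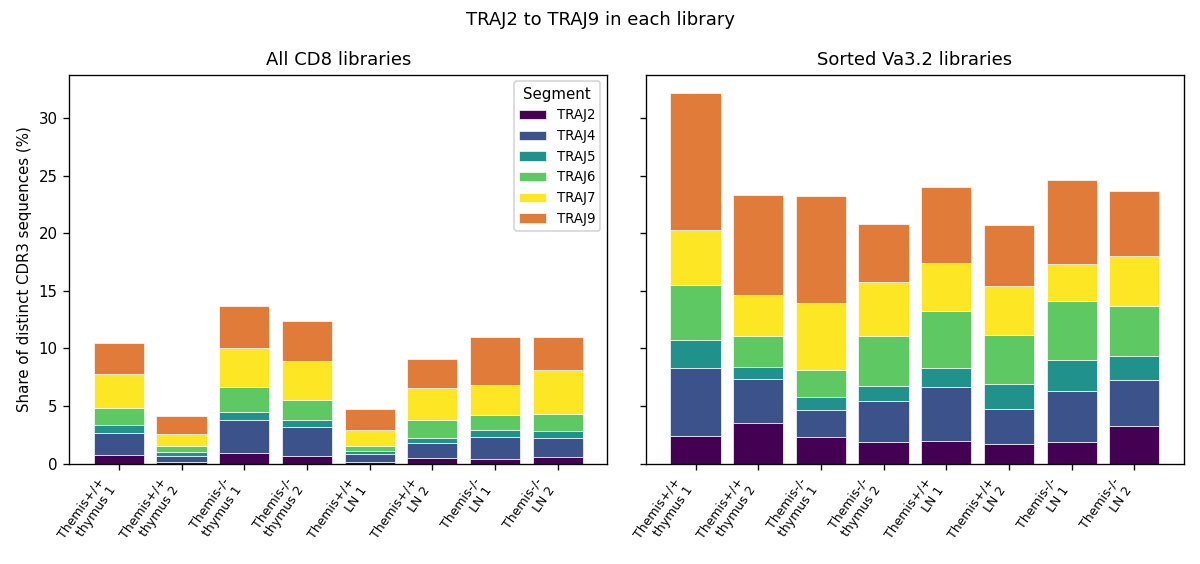
Stacked bars give the percentage of distinct CDR3 sequences joined to each of the 6 segments in every library, all CD8 libraries at left and sorted Vα3.2 libraries at right, on a common axis from 0. Bars of all CD8 libraries reach 4.18% to 13.7% and those of sorted libraries 20.7% to 32.1%.

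TRAJ9 and TRAJ7, the members nearest to the rest of the cluster, were the most used by reads and when all distinct sequences were counted. TRAJ9 took 2.71% and 1.59% of sequences in Themis+/+ thymus, 3.70% and 3.48% in Themis-/- thymus, 1.80% and 2.45% in Themis+/+ LN and 4.20% and 2.84% in Themis-/- LN. The Themis-/- libraries were thus above the Themis+/+ libraries in both tissues. TRAJ7 took 2.87% and 1.09%, 3.36% and 3.38%, 1.39% and 2.83%, and 2.59% and 3.84% in the same order. Its groups did not overlap in thymus but did in LN, where Themis+/+ LN 2 lay above Themis-/- LN 1.

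TRAJ4 and TRAJ6 followed when all distinct sequences were counted. TRAJ4 took 1.93% and 0.560% in Themis+/+ thymus, 2.80% and 2.50% in Themis-/- thymus, 0.714% and 1.34% in Themis+/+ LN, and 1.90% and 1.62% in Themis-/- LN. No Themis+/+ library reached a Themis-/- library of its tissue. TRAJ6 took 1.52% and 0.455% in Themis+/+ thymus, 2.18% and 1.73% in Themis-/- thymus, 0.468% and 1.55% in Themis+/+ LN and 1.29% and 1.46% in Themis-/- LN. Its LN groups overlapped, with both Themis-/- libraries between the Themis+/+ libraries.

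TRAJ2, the last segment with the motif before the constant region, and TRAJ5 were the least used. TRAJ2 took 0.744% and 0.116% in Themis+/+ thymus, 0.954% and 0.675% in Themis-/- thymus, 0.143% and 0.452% in Themis+/+ LN and 0.367% and 0.609% in Themis-/- LN. Only 11 sequences stood behind the lowest of these and 124 behind the highest Themis+/+ value, and the groups overlapped in both tissues. TRAJ5 took 0.684% and 0.370%, 0.717% and 0.651%, 0.230% and 0.435%, and 0.643% and 0.591% in the same order, with overlap in thymus and none in LN. Over the 8 libraries the medians were 2.85% for TRAJ7, 2.77% for TRAJ9, 1.76% for TRAJ4, 1.49% for TRAJ6, 0.617% for TRAJ5 and 0.531% for TRAJ2. The ranges of TRAJ7 and TRAJ9, of TRAJ4 and TRAJ6 and of TRAJ5 and TRAJ2 overlapped over most of their length.

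The comparison of the genotypes asked whether loss of Themis, which alters selection in the thymus, changes the use of these late segments. In thymus both Themis-/- libraries lay above both Themis+/+ libraries for 4 of the 6 members (TRAJ4, TRAJ6, TRAJ7 and TRAJ9), against 30.2% of all 43 segments, and in LN for 3 of 6 (TRAJ4, TRAJ5 and TRAJ9), against 23.3%. By edgeR's quasi-likelihood test on reads, adjusted over the 43 segments, 0 of 6 members passed an adjusted p of 0.05 in either tissue, where 2.33% of all segments did in thymus (TRAJ12, a neighbour) and 2.33% in LN (TRAJ13, another). Unadjusted p fell under 0.05 for 2 members in thymus and 3 in LN, and DESeq2 called 0 and 0. The log2 fold changes, Themis-/- over Themis+/+, had a median of 0.83 over the members in thymus and 0.90 in LN, beside 0.01 and 0.01 over all segments. TRAJ9 came closest, at 0.89 ± 0.28 (SE, adjusted p = 0.0765) in thymus and 0.88 ± 0.28 (adjusted p = 0.0589) in LN. TRAJ7 stood at 0.77 ± 0.44 and 1.14 ± 0.44, TRAJ4 at 1.18 ± 0.54 and 0.67 ± 0.54, TRAJ2 at 0.45 ± 0.44 and 1.14 ± 0.45, TRAJ5 at 0.73 ± 0.46 and 0.92 ± 0.47, and TRAJ6 at 1.14 ± 0.59 and -0.19 ± 0.59.

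These counts depended on single libraries. Without Themis+/+ thymus 1, the higher of its pair, 4 members passed in thymus, and without Themis+/+ LN 1 or Themis+/+ LN 2 it was 1. In LN 2 passed without Themis+/+ LN 2 and 1 without Themis-/- LN 2. Leaving out both low Themis+/+ libraries, a choice made after their values were seen, left 1 Themis+/+ library in each tissue. The log2 fold changes of the members then ran from 0.11 (TRAJ2) to 0.73 (TRAJ5) in thymus. In LN they ran from -0.65 (TRAJ6) to 0.81 (TRAJ2). TRAJ9 stood at 0.45 ± 0.30 in thymus and 0.73 ± 0.31 in LN.

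Between tissues, by share of sequences, both LN libraries of Themis-/- lay below both thymus libraries for 4 of the 6 members (TRAJ2, TRAJ4, TRAJ5 and TRAJ6), against 20.9% of all segments, and above them for 0, against 18.6%. The summed shares of Themis-/- did not overlap either, at 10.99% and 10.97% in LN and 13.7% and 12.4% in thymus. In Themis+/+ the tissues overlapped by share of sequences for each of the 6 members, where 14% of all segments had both LN libraries above and 4.65% both below. By reads, LN lay below for 2 of 6 members in Themis-/-, against 30.2% of all segments, and for 2 in Themis+/+, against 9.30%. It lay above for 0 in each, against 30.2% and 11.6%. The edgeR test on reads made no call. Of the 6 members 0 passed for LN against thymus in Themis+/+, where 0% of all segments did, with 1 member at an unadjusted p under 0.05 (TRAJ2, log2 -1.21 ± 0.45), and 0 passed in Themis-/-, again with 0% of all segments and 0 members at that p. DESeq2 called 0 in both. All 6 log2 fold changes were negative in Themis-/-, from -1.08 for TRAJ6 to -0.04 for TRAJ7, beside a median of -0.13 over all segments. The difference between the genotype effect in LN and that in thymus was tested as an interaction and passed for 0 of 6 members and 0% of all segments, with 0 members at an unadjusted p under 0.05 and 0 called by DESeq2. Fewer cells using a segment and less TCRα RNA per cell cannot be told apart in such libraries.

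Along the cluster the share of sequences in most libraries of all CD8 cells was highest in the middle and lower toward both ends. Themis+/+ thymus 2 was the exception, with 21.9% at TRAJ48 to TRAJ61 beside 21.2% at TRAJ21 to TRAJ28. TRAJ segments 1 to 9 took 4.18% to 13.7% of sequences in the libraries of all CD8 cells, TRAJ11 to TRAJ18 11.6% to 21.8%, TRAJ21 to TRAJ28 21.2% to 24.8%, TRAJ30 to TRAJ35 18.6% to 22.3%, TRAJ37 to TRAJ47 11.7% to 19.2% and TRAJ48 to TRAJ61 10.7% to 21.9%. The libraries low in TRAJ2 to TRAJ9 were those high at the V-proximal end, where Themis+/+ thymus 2 and Themis+/+ LN 1 reached 21.9% and 18.9%. The genotype difference in reads, unlike the share, went in 1 direction along the cluster. In thymus its median log2 fold change went from 0.83 at TRAJ2 to TRAJ9 through 0.60, 0.21, -0.04 and -0.25 to -0.71 at TRAJ48 to TRAJ61, and in LN from 0.90 through 0.30, 0.18, -0.25 and -0.30 to -0.30. In distinct sequences it fell throughout in thymus, from 0.88 to -0.60. In LN it fell from 0.88 to -0.41 at TRAJ37 to TRAJ47 and was -0.23 at TRAJ48 to TRAJ61. The comparisons in thymus and LN use different libraries within 1 fit, and the medians were not tested. They include both low Themis+/+ libraries. Without these the members' log2 fold changes in reads ran from 0.11 to 0.73 in thymus and from -0.65 to 0.81 in LN.

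**Figure D2:**
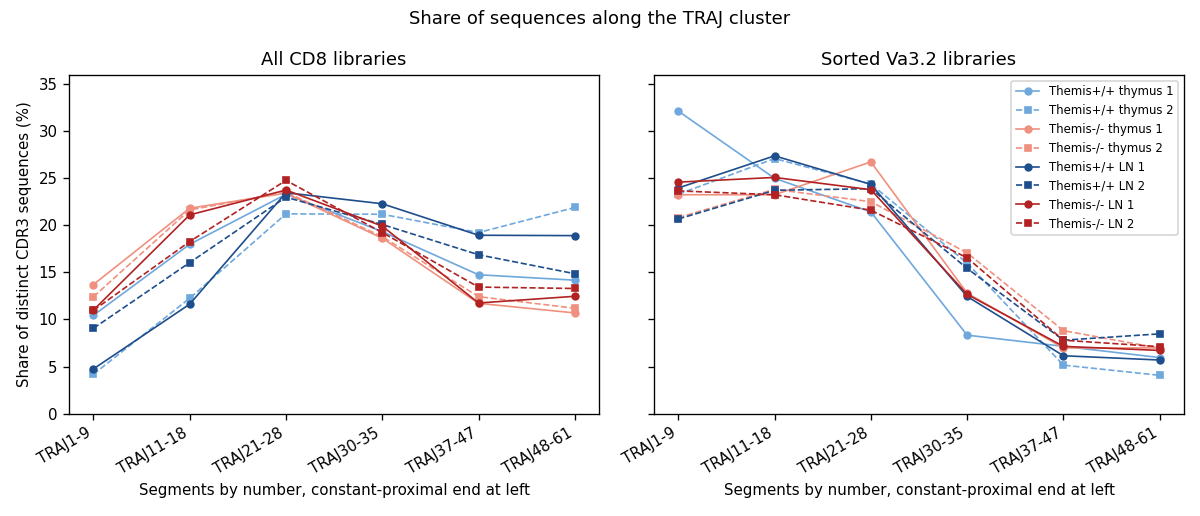
The percentage of distinct CDR3 sequences in 6 blocks of TRAJ segments is drawn for each library, with the constant-proximal block at left, colours for genotype and tissue, and line style for library 1 or 2. In all CD8 libraries the lines spread at both ends and meet at TRAJ21 to TRAJ28 (21.2% to 24.8%), while in sorted libraries all 8 start high and end between 4.07% and 8.47%.

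Among the segments outside the set, those whose log2 share of sequences varied most like the summed members over the 8 libraries of all CD8 cells were TRAJ12 (Pearson r = 0.95), TRAJ15 (0.93) and TRAJ11 (0.90), all of the adjacent block. These are descriptions over 8 points that share libraries, and shares within a library sum to a constant. Each member followed the sum of which it is a part with r from 0.89 (TRAJ5) to 0.98 (TRAJ4). The nearest neighbours outside the set, TRAJ11, TRAJ12 and TRAJ13, had medians of 1.16%, 4.86% and 2.13% of sequences.

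Cells sorted for Vα3.2 used the segments far more. TRAJ2 to TRAJ9 took 32.1% and 23.3% of sequences in sorted Themis+/+ thymus, 23.3% and 20.8% in Themis-/- thymus, 24.0% and 20.7% in Themis+/+ LN and 24.6% and 23.7% in Themis-/- LN. The lowest sorted library thus lay above the highest library of all CD8 cells, which held 13.7%. TRAJ11 to TRAJ18, the adjacent block, was also higher in sorted libraries, at 23.3% to 27.4% against 11.6% to 21.8%. The first thymus libraries rest on few sequences, 27 of 84 in Themis+/+ (exact 95% interval 22.4% to 43.2%) and 20 of 86 in Themis-/- (14.8% to 33.6%). By reads the sorted libraries held 17.7% to 31.7%. All members took part: median shares of sequences were 6.90% for TRAJ9, 4.35% for TRAJ6, 4.31% for TRAJ7, 3.88% for TRAJ4, 2.15% for TRAJ2 and 1.82% for TRAJ5. The ranges of sorted libraries and of all CD8 libraries overlapped for TRAJ4 and TRAJ7 and lay apart for the other members. How many of all segments lay apart in this way was not counted. TRAJ9 stood at 5.07% to 11.9% in sorted libraries against 1.59% to 4.20%, and TRAJ2 at 1.69% to 3.52% against 0.116% to 0.954%.

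In reads, with edgeR on all 16 libraries, 3 of the 6 members were higher in sorted cells than in unsorted CD8 cells of LN, where 9.3% of all segments were called in either direction. These were TRAJ4 (log2 fold change 1.84 ± 0.44, adjusted p = 0.0273), TRAJ6 (1.95 ± 0.55, adjusted p = 0.0469) and TRAJ9 (1.10 ± 0.30, adjusted p = 0.0469). TRAJ2 stood at 2.46 ± 0.75, TRAJ5 at 2.08 ± 0.80 and TRAJ7 at 1.27 ± 0.41, with adjusted p of 0.0539 to 0.129. In thymus 0 of 6 passed, where 2.33% of all segments did, with 3 at an unadjusted p under 0.05, and log2 fold changes ran from 0.46 for TRAJ5 to 1.59 for TRAJ4. DESeq2 called 4 members in LN and 2 in thymus. The median over the members was 1.89 in LN and 1.09 in thymus, beside -0.20 and -0.59 over all segments, and changes are read relative to those medians.

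Counted as distinct sequences, 5 members were higher in sorted LN cells and 4 in sorted thymocytes. Of all segments 60.5% and 30.2% were called, in either direction. Outside the members, 4 of the 7 segments of TRAJ11 to TRAJ18 were called higher in LN and none in thymus. No segment of another block was called higher, and those called from TRAJ30 to TRAJ61 were lower. Counted as distinct sequences with a germline J end, 69.8% of all segments in LN and 41.9% in thymus were called in either direction. Among the members 6 were higher in LN and 5 in thymus, with TRAJ5 in thymus the exception at 0.99 ± 0.50. In LN the largest of these log2 fold changes were 2.45 ± 0.45 for TRAJ2, 2.25 ± 0.33 for TRAJ5 and 2.16 ± 0.36 for TRAJ6, and TRAJ9 had the smallest at 1.16 ± 0.22. The count on reads in LN rested on single libraries. It was 0 without sorted Themis+/+ LN 1, sorted Themis-/- LN 1, all CD8 Themis+/+ LN 1 or either Themis-/- LN library of all CD8 cells, and 0 without TMM scaling. It was 1 without sorted Themis-/- LN 2, all CD8 Themis+/+ LN 2 or either all CD8 Themis-/- thymus library, and 6 without any 1 of the 4 sorted thymus libraries. In thymus it was 3 without sorted Themis+/+ thymus 2, 2 without sorted Themis-/- thymus 2 or all CD8 Themis+/+ thymus 1, and 1 without sorted Themis+/+ LN 2.

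TRAV9N-3 chains of unsorted cells also used the members often. In the libraries of all CD8 cells 68 to 193 sequences per library used TRAV9N-3 or its near-identical copy TRAV9D-3, whose assignments may be exchanged, and 11.1% to 38.2% of these were joined to TRAJ2 to TRAJ9 (median 24.7%), against 3.99% to 13.5% of the sequences with other V segments. The share with these V segments was higher in each of the 8 libraries. Across sorted libraries 22.5% to 31.6% of TRAV9N-3 and TRAV9D-3 sequences were joined to the members, within the range of unsorted cells. The sorted libraries held 65.1% to 96.5% of sequences with TRAV9N-3 or TRAV9D-3 and 94.0% to 99.0% with the TRAV9 family.

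Within sorted cells some members separated the groups by their share of sequences. Both Themis-/- thymus libraries lay below both Themis+/+ thymus libraries for 2 of 6 members (TRAJ2 and TRAJ4), against 9.3% of all segments, and above for 0, against 18.6%. In LN the genotypes overlapped for all 6, where 16.3% of all segments had Themis-/- above and 18.6% below. Both LN libraries of Themis+/+ lay below both thymus libraries for TRAJ2 and TRAJ9, against 6.98% of all segments, and above for 0, against 14%. In Themis-/- they lay above for 3 (TRAJ4, TRAJ5 and TRAJ6), against 18.6%, and below for 1 (TRAJ7), against 23.3%. The first thymus library of each genotype holds 1 to 10 sequences of a member.

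The test on reads made no call among the sorted groups. For Themis-/- against Themis+/+ 0 of 6 members passed in thymus and 0 in LN, as for 0% and 0% of all segments, and for LN against thymus 0 passed in Themis+/+ and 0 in Themis-/-, again 0% and 0%. In each of these edgeR tests 0 members had an unadjusted p under 0.05, and DESeq2 called 0. Log2 fold changes for the genotype ran from -0.72 (TRAJ9) to 0.09 (TRAJ7) in thymus and from -0.45 (TRAJ6) to 1.23 ± 1.02 (TRAJ2) in LN, with standard errors of 0.55 to 1.28.

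V segments close to the J cluster were seldom joined to the members. Of 97 V segments with at least 100 sequences and a position on GRCm38, the 12 that end 250 to 500 kb before the first annotated Traj segment were joined to TRAJ2 to TRAJ9 in 3.57% of sequences, the 21 at 500 to 750 kb in 5.51%, the 22 at 750 to 1000 kb in 14.1%, the 20 at 1000 to 1250 kb in 12.6% and the 22 beyond that in 9.34%. Single segments varied within these classes, from 0.437% for TRAV19 to 12.4% for TRAV14-3 in the nearest one. TRAV9N-3 stood at 129 of 516 sequences, TRAV15N-2 at 22.9% of 131, TRAV12N-2 at 21.7% of 1272 and TRAV9D-3 at 20.97% of 558. These values pool 8 libraries that differ in their member share and in how much of each V segment they hold, so their order was not tested. Neighbours differed: TRAV12N-3 stood at 19.5% beside TRAV9N-3, but beside TRAV9D-3 it was 17.3% for TRAV12D-3 and 10.9% for TRAV12D-2. The TRAV9 copies nearer to the J cluster, TRAV9-4, TRAV9-2 and TRAV9-1, stood at 1.45%, 7.48% and 2.22%. Segments of the repeated N and D copies are nearly identical, so their assignment is uncertain.

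The V families nearest to the J cluster, TRAV17 to TRAV21, were joined to the members in 23 of 7517 sequences. They were joined to other TRAJ segments in 2362 of 71147. In single libraries they made up 0% to 1.51% of member sequences and 2.25% to 4.64% of the others, without overlap, and the same held for sequences with germline J ends (0% to 0.727% against 2.34% to 5.22%).

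**Figure D3:**
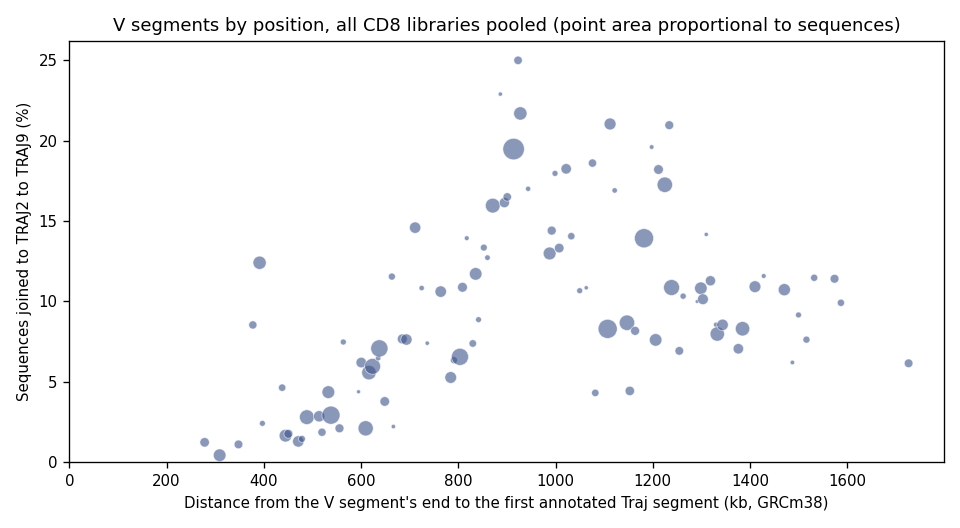
Each point is 1 of 97 V segments, placed by its distance in kb from the first annotated Traj segment (x axis) and by the percentage of its sequences joined to TRAJ2 to TRAJ9 in the pooled libraries of all CD8 cells (y axis), with point area proportional to its sequences. Most points up to 500 kb lie low, with an average of 3.57%, and the topmost point, TRAV9N-3 with 129 of 516 sequences, lies at 923 kb.

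Pairing with V families was tested against the number expected from the V and J totals of each library, in 22 pairs of a member with a family that had at least 5 expected sequences in all 8 libraries of all CD8 cells. TRAJ9 entered with 8 families, TRAJ7 with 7, TRAJ4 with 4 and TRAJ6 with 3, and TRAJ2 and TRAJ5 with none. Above expectation 4 of the 22 passed edgeR's quasi-likelihood test, beside 10.4% of all 231 pairs tested, and below expectation 1 passed, beside 7.79%. TRAJ7 paired with TRAV12 in 572 sequences against 358 expected (log2 ratio 0.64 ± 0.08, adjusted p = 0.00244), and was above expectation in 8 of 8 libraries. It also paired more with TRAV3, at 258 against 177 (0.56 ± 0.11, adjusted p = 0.0124), in 7 of 8. With TRAV13 it fell short, at 61 against 160 (-1.38 ± 0.28, adjusted p = 0.0124), and was below expectation in 8 of 8.

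TRAJ9 leaned the other way on TRAV13. It paired with this family in 238 sequences against 170 expected (0.41 ± 0.11, adjusted p = 0.0280), above in 8 of 8 libraries, and with TRAV7 in 358 against 303 (0.33 ± 0.10, adjusted p = 0.0396), above in 7 of 8. TRAJ6 and TRAJ4 stood above expectation with TRAV12 in 7 of 8 libraries each, at 0.34 ± 0.12 and 0.30 ± 0.11, but did not pass (adjusted p = 0.0734 and 0.0764). TRAJ4 with TRAV6 (-0.67 ± 0.27) and TRAJ9 with TRAV16 (-0.64 ± 0.26) were the lowest of the rest. Whether TRAJ7 and TRAJ9 differ from each other in a family was not tested.

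With sequences of germline J ends, 7 member pairs had enough sequences and TRAJ7 with TRAV12 was the 1 that passed (0.58 ± 0.11, adjusted p = 0.000873). No member pair passed in either direction without Themis+/+ thymus 1, where 0 of all 231 pairs did, and 1 passed above without Themis+/+ thymus 2. Above expectation 2 passed without Themis+/+ LN 1, Themis+/+ LN 2, Themis-/- thymus 1 or Themis-/- thymus 2. Below expectation it was 0 without Themis+/+ thymus 2 or Themis-/- thymus 1, and 2 without Themis+/+ LN 2 or Themis-/- LN 1.

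**Figure D4:**
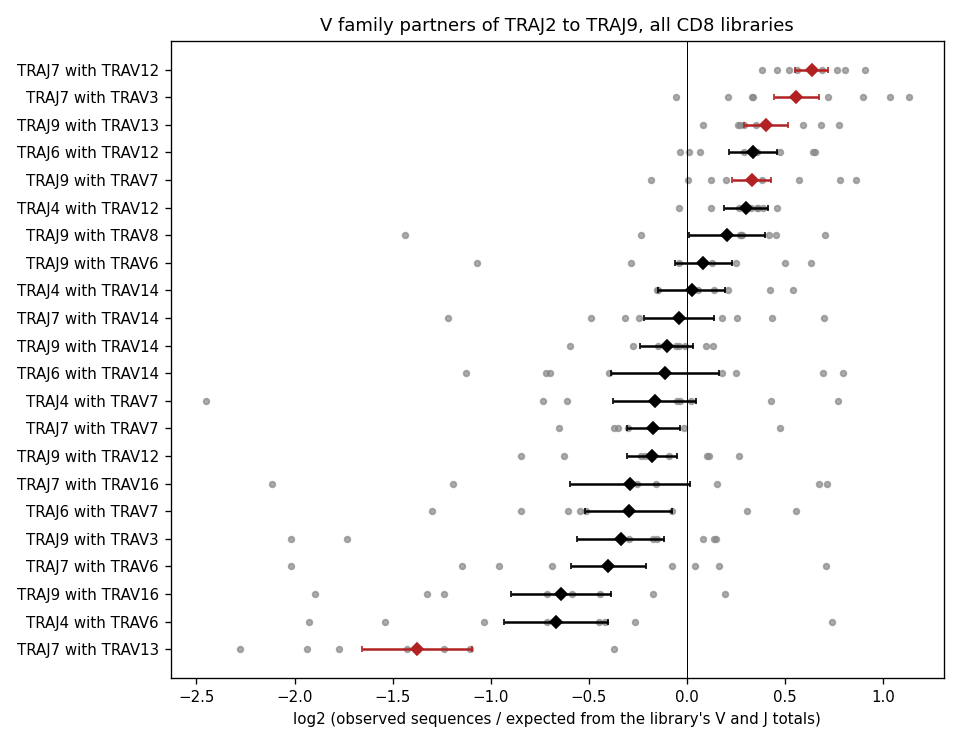
For the 22 tested pairs, the x axis gives the log2 ratio of observed to expected sequences; grey dots are the 8 libraries of all CD8 cells (2 dots with 0 observed sequences are not drawn) and diamonds the fitted value with its SE, red where the adjusted p is under 0.05. TRAJ7 with TRAV12 (0.64) is at the top and TRAJ7 with TRAV13 (-1.38) at the bottom.

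CDR3 length differed between members in the order of their germline length. Mean CDR3 lengths over the 8 libraries of all CD8 cells were 46.4 bp ± 0.929 for TRAJ2, 42.7 ± 0.518 for TRAJ4, 42.2 ± 0.943 for TRAJ5, 41.8 ± 0.347 for TRAJ6, 40.5 ± 0.282 for TRAJ7 and 38.3 ± 0.322 for TRAJ9 (SD, n = 8 libraries of 4 groups). The bases before the motif number 35 in TRAJ2, 32 in TRAJ4, 31 in TRAJ5 and TRAJ6, 28 in TRAJ7 and 27 in TRAJ9, and over 42 segments this number and the mean CDR3 length had a Pearson r of 0.94, across segments that share libraries. Set against the mean of their library by limma, with at least 20 sequences in each library, 5 members could be tested and 4 passed, where 85.7% of all 42 segments did. TRAJ4 (2.15 bp ± 0.12), TRAJ5 (1.68 ± 0.21) and TRAJ6 (1.23 ± 0.13) were longer and TRAJ9 (-2.25 ± 0.13) was shorter, and TRAJ7 stood at -0.04 ± 0.11. TRAJ2 had under 20 sequences in 3 libraries and was not tested.

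By the authors' alignment TRAJ7 had the fewest N nucleotides and the least J trimming of the members tested. In TRAJ7 50.04% ± 7.60 of sequences had no N nucleotide (SD, n = 8 libraries), against 33.4% ± 1.54 in TRAJ segments outside the set, and 52.8% ± 5.45 kept an untrimmed J end, against 30.1% ± 0.896. Its mean of 1.35 N nucleotides was 0.65 ± 0.04 under its library (limma, adjusted p = 6.12e-05) and 1.20 ± 0.06 fewer J bases had been removed (adjusted p = 4.47e-07). TRAJ5 was the other member below its library in N nucleotides, by 0.56 ± 0.08 (adjusted p = 0.00242), and TRAJ4 had lost 0.73 ± 0.11 more J bases (adjusted p = 0.000185). These were 2 of 5 members for N nucleotides, beside 50.0% of all 42 segments, and 2 of 5 for trimming, beside 73.8%. TRAJ4, TRAJ6 and TRAJ9 lay within 0.11 of their library in N nucleotides, on the scale of the mean. With germline J ends TRAJ5 had too few sequences to be tested, TRAJ7 stood at -0.62 ± 0.07 for N nucleotides and -1.12 ± 0.06 for trimming, and its length passed the test at -0.49 ± 0.13 bp. The number of N nucleotides comes from the authors' alignment, in which a base that matches either segment by chance is given to that segment. A sequence whose V and J alignments overlapped was counted as having no N nucleotide. They overlapped in 31.6% to 47.1% of TRAJ7 sequences per library, against 21.3% to 27.1% in TRAJ segments outside the set.

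Across genotype and tissue 0 of 5 members passed for CDR3 length in each comparison, where 0% and 0% of all segments did, and 0 of 5 for N nucleotides, again beside 0% and 0%. At an unadjusted p under 0.05 limma had 0 members for length between genotypes and 2 between tissues, and 1 and 1 for N nucleotides. TRAJ7 was the member in both N counts. Its mean number of N nucleotides was 1.73 and 1.83 in Themis+/+ thymus, 1.398 and 1.30 in Themis-/- thymus, 1.16 and 1.26 in Themis+/+ LN and 1.05 and 1.06 in Themis-/- LN. Each Themis-/- library was thus below both Themis+/+ libraries of its tissue and each LN library below all thymus libraries of its genotype. TRAJ segments outside the set had the same order, at 2.11 and 2.15, 2.04 and 1.94, 2.07 and 2.09, and 1.87 and 1.85. For TRAJ7 the differences were -0.29 ± 0.11 for Themis-/- against Themis+/+ (adjusted p = 0.234) and -0.43 ± 0.11 for LN against thymus (adjusted p = 0.182), beside medians of -0.08 and -0.11 over all segments. For length, TRAJ4 and TRAJ5 were 0.72 ± 0.25 and 1.06 ± 0.40 bp longer in LN, with adjusted p of 0.266 each. Without Themis-/- LN 1, 1 member passed for length between genotypes, and without Themis-/- LN 2, 1 passed between tissues.

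**Figure D5:**
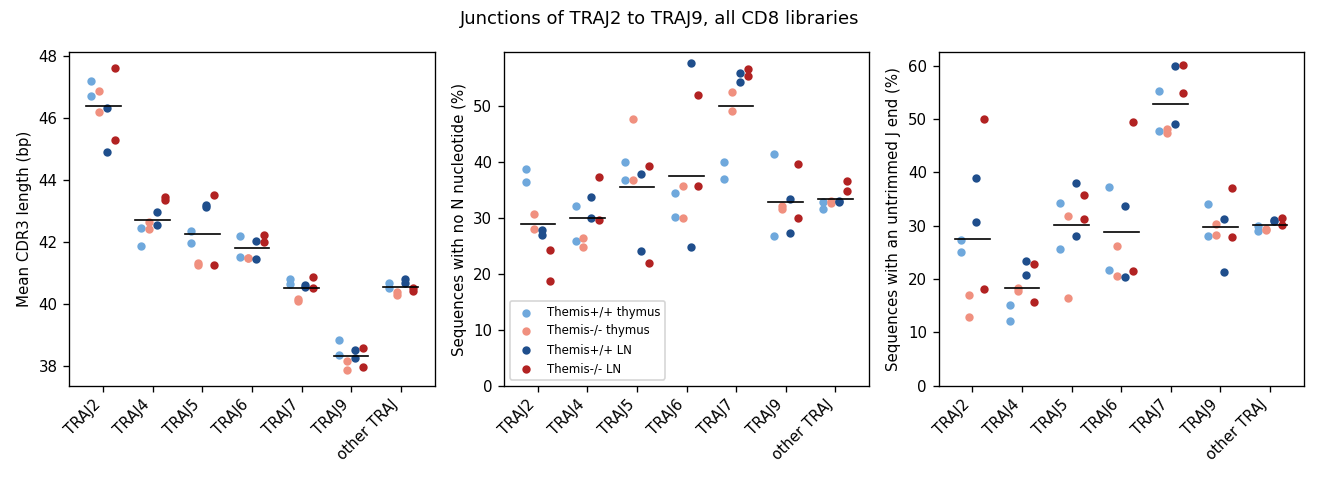
Points are the 8 libraries of all CD8 cells, coloured by genotype and tissue, for each member and for all other TRAJ segments, and bars are means over libraries; panels give the mean CDR3 length in bp (the axis does not start at 0), the percentage of sequences with no N nucleotide and the percentage with an untrimmed J end. Length falls from 46.4 bp in TRAJ2 to 38.3 bp in TRAJ9, and the mean of TRAJ7 is the highest in the other panels at 50.04% and 52.8%.

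In sorted cells TRAJ7 again had the highest mean share of sequences without N nucleotides, from 60.0% to 100% per library with 4 to 55 sequences each, against 31.0% to 42.1% in TRAJ segments outside the set. The V and J alignments overlapped in 59.4% to 100% of TRAJ7 sequences per library, against 20.1% to 33.3%. CDR3 lengths of the members were near those of unsorted cells, from a mean of 46.9 bp for TRAJ2 to 38.1 bp for TRAJ9. These were not tested.

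Sharing of CDR3s between libraries, by identical bases and J segment, was uneven among members. Of 6718 distinct member sequences of all CD8 cells 572, or 8.51%, were found in 2 or more libraries, beside 8.34% of sequences with other TRAJ segments. TRAJ7 (11.8%) and TRAJ9 (11.1%) were shared most and TRAJ2 (2.40%) least, and with germline J ends the shares were 13.8%, 12.8% and 3.46%. In the sorted libraries 161 of 972, or 16.6%, were shared, beside 13.3% of the others. The order of members differed there, with TRAJ5 (19.5%) and TRAJ9 (19.0%) shared most and TRAJ4 (11.1%) least. TRAJ2 stood at 16.7% and TRAJ7 at 16.4%.

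The CDR3s found in most libraries show how these joins look. Bases that the authors' alignment gave to the J segment are printed in capitals, also where the V alignment covers them too. Other V bases and N bases are in lower case. Shown are the 2 found in the most libraries of all CD8 cells for TRAJ9, TRAJ7 and TRAJ6.
TRAJ9 a: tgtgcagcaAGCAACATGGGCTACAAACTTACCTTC
TRAJ9 b: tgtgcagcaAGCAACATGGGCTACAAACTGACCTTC
TRAJ7 a: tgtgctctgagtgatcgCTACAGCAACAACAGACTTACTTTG
TRAJ7 b: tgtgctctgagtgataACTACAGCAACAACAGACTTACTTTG
TRAJ6 a: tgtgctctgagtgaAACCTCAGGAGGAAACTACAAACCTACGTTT
TRAJ6 b: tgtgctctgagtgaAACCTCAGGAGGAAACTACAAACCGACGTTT
TRAJ9 a was present in 8 of 8 libraries, with first V hits TRAV7D-2, TRAV10D or TRAV14N-2, at 0.337% to 5.88% of the TRAJ9 reads of a library. It holds the whole germline J end with no N nucleotide. TRAJ9 b, in 7 of 8 libraries, differs from it by T30G, counted from 1 at the 5′ end with the germline base first, and TRAJ6 b, in 3 of 8, differs from TRAJ6 a, in 5 of 8, by T39G. T to G made up 82.6% of the members' J end substitutions in these libraries. Whether such a and b sequences are separate joins was not tested. TRAJ7 a and b, in 7 and 6 of 8, use TRAV12 family segments and end in a germline J, again with no N nucleotide counted. The V and J alignments overlapped by 8 and 9 bases in TRAJ7 a and b and by 7 in TRAJ9 a. Such an overlap is counted as no N nucleotide. TRAJ6 a also used the TRAV12 family, with no base trimmed from its J segment, and reached 13.0% of the TRAJ6 reads in Themis+/+ LN 1.

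TRAJ4 and TRAJ2 gave CDR3s in fewer libraries, and TRAJ5 likewise, which the CDR3s in the most libraries for each show.
TRAJ4 a: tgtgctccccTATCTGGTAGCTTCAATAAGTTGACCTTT
TRAJ4 b: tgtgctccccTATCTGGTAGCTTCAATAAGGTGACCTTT
TRAJ5 a: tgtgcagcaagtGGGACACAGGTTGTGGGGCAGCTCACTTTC
TRAJ5 b: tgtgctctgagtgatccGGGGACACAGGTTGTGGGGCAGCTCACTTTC
TRAJ2 a: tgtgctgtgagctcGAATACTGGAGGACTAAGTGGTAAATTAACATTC
TRAJ2 b: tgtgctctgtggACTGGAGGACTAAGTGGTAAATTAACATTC
TRAJ4 a and b were each in 4 of 8 libraries and differ by T31G, again T to G in the J end. TRAJ5 a and b were in 3 of 8 each, TRAJ5 a in thymus of both genotypes and TRAJ5 b in Themis-/- libraries only, among those sequenced here. TRAJ2 a, with TRAV9D-3, was in 3 thymus libraries and also in 4 sorted libraries, and TRAJ2 b was in 2 LN libraries.

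In sorted libraries the CDR3 with the highest mean share of a member's reads depended on how many sequences that member had. For TRAJ9 it was a sequence in all 8 sorted libraries and 4 libraries of all CD8 cells, and for TRAJ2 one in 5 of 8; both are shown because they recur across genotypes and tissues.
TRAJ9 sorted: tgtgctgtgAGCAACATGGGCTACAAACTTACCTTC
TRAJ2 sorted: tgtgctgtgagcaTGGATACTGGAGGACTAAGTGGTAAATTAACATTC
TRAJ9 sorted carried the germline J end whole and no N nucleotide, on TRAV9N-3 or TRAV9D-3, and made up 2.23% to 15.3% of TRAJ9 reads (mean 9.79%). The V and J alignments of this sequence overlapped by 4 bases. TRAJ2 sorted differs from the J germline by A16G, within an overlap of 4 bases that the alignment gave to both V and J. It made up 1.80% to 99.2% of TRAJ2 reads, the last in Themis+/+ thymus 1, which held 2 TRAJ2 sequences. For TRAJ4, TRAJ5, TRAJ6 and TRAJ7 the leading CDR3 of the sorted libraries was in 1 to 3 of 8 and owed its mean share to a first thymus library with 1 to 5 sequences of that segment, where it reached 57.6% to 100% of the segment's reads.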

How the data were processed

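TCRα cDNA made by template switching was amplified with a constant region primer, read on a MiSeq and assembled into clones with MiXCR, per the methods. The submitters' processing notes name CASAVA 1.4 and mm9; no source used here gives the version of MiXCR. For each of the 16 libraries the authors deposited, per CDR3 nucleotide sequence, an unnormalized read count and its fraction of the library. Fractions were not tested.

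The first J and V hits were used. Of all rows 12 listed more than 1 J hit, none of them a member, and 7 had a first J hit outside TRAJ and were left out of tests. N nucleotides and J trimming were read from the alignment's reference points. Segment sequences and positions came from GENCODE M21 on GRCm38, as the files hold no coordinates.

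Reads were summed per TRAJ segment, segments that reached 10 reads in fewer than 2 libraries were dropped, and the rest were tested with edgeR 4.0.16 (quasi-likelihood, TMM), 8 libraries of a kind in 1 fit or all 16 together, and DESeq2 1.42.0 was an alternative. Means per segment with at least 20 sequences in each library were tested with limma 3.58.1, and V-J pairs with edgeR and the expected number as offset. Adjusted p are Benjamini-Hochberg values over all segments or pairs tested, with a threshold of 0.05. Intervals are exact binomial at 95%. Scripts ran in R 4.3.3 and Python 3.11.15 and were tested on simulated data. Total counts per library were 57455 to 146191 for all CD8 and 10338 to 25247 for sorted cells, which limits the precision of sorted values.

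Members and lists were chosen with earlier results of these data known. Named were all members, TRAJ11 to TRAJ13, the 3 other segments most like the summed members, member pairs with an adjusted p under 0.05, and per member the 2 CDR3s in most libraries of all CD8 cells (ties by share of the segment's reads) and the leading 1 in sorted cells. Other V segments and pairs were named after their values were seen, and so was the comparison of J ends with the germline over 12 bases.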

Additional observations from a re-analysis of the deposited data

How the results depend on the processing

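The number of members called, of 6, for sorted against all CD8 cells was 3 in LN and 0 in thymus on reads. With distinct sequences in place of reads it was 5 and 4, with distinct sequences and both low Themis+/+ libraries left out 6 and 4, and with distinct sequences of germline J ends 6 and 5. In thymus DESeq2 called 2. In LN it was 0 without TMM and 0 with both low Themis+/+ libraries left out. Leaving out 1 library at a time gave 0 to 6 in LN and 0 to 3 in thymus. For Themis-/- against Themis+/+ in all CD8 cells, it gave 0 to 4 in thymus and 0 to 2 in LN, where all libraries gave 0. For CDR3 length it gave 0 to 1 between genotypes and 0 to 1 between tissues.

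Of the member pairs with a V family, 4 were above expectation and 1 below. With an expected number of at least 2 these were 7 and 4, with both low Themis+/+ libraries left out 1 and 0, and with germline J ends 1 and 0. Leaving out 1 library gave 0 to 3 above and 0 to 2 below. For N nucleotides germline J ends left 1 of 2 calls, since TRAJ5 then had too few sequences. The cause of the other changes was not tested.

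The labels do not say that replicate numbers mark a shared mouse, pool or day, and there are 2 numbers, so the samples were treated as unpaired. With a replicate block 2 members were called in LN for sorted against all CD8 cells, 4 pairs above and 1 below, 4 members for CDR3 length, 2 for N nucleotides, 2 for trimming, and 0 in each genotype and tissue comparison. The sorted thymus libraries with 84 and 86 sequences limit what the sorted comparisons can show. The alternatives on low libraries and germline J ends were chosen after seeing the data.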
